A study of Mus musculus with 2 samples.

Results

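The genes described here encode enzymes that turn glucose into lactate, with Gapdh, the gene of glyceraldehyde phosphate dehydrogenase, set against the other steps. They are Hk2, Gpi1, Pfkl, Aldoa, Tpi1, Gapdh, Pgk1, Eno1, Pkm and Ldha. No gene of phosphoglycerate mutase, the step between those of Pgk1 and Eno1, is among them. They were taken by gene name from the deposited values, which hold 54532 genes, and the 10 names matched 11 entries because Aldoa is listed under 2 identifiers. The smaller Aldoa entry (ENSMUSG00000114515) had 0 reads in PDR and 3 in SKYD, and the larger one is meant below. Gapdh was chosen because its level differed between these libraries, so that difference is given as a description.

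RNA came from aortic cells sorted on F4/80 and CD11b, surface proteins of macrophages, from male ApoE-/- mice of the C57BL/6J background that were labelled as 6 weeks old. The PDR group (Phlegm-Dampness Retention syndrome) had a high-fat diet for 4 weeks. The SKYD group (Spleen and Kidney Yang Deficiency syndrome) had propylthiouracil, a drug that lowers thyroid hormone, for 4 weeks at 10 mg/kg per day and then a high-fat diet for 2 weeks. Whether the age of 6 weeks was at the start or at sampling is not stated. The SKYD treatment took longer in all, so age at sampling may differ between the groups. Each group is 1 library made from 5 mice together, so no difference has a replicate check. Syndrome, drug, diet time, length of treatment and age at sampling cannot be told apart. Both groups lack functional ApoE, the apolipoprotein that clears remnant lipoproteins, and the 2 libraries hold no untreated control.

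Glycolysis splits a sugar into smaller molecules and gains ATP and NADH on the way. Hexokinase traps glucose in the cell, phosphofructokinase commits it to the pathway, aldolase cuts it, and GAPDH makes the NADH that lactate dehydrogenase later uses up. Macrophages are known to raise glycolysis when they are activated by inflammatory signals or low oxygen. Gapdh is also widely used as a reference gene, on the assumption that its level is steady.

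The reads on genes summed to 23086889 for PDR and 25427863 for SKYD. All 8 macrophage markers had reads, among them Adgre1 (F4/80) with 6639 in PDR and 7551 in SKYD. Their median log2 difference, PDR minus SKYD as defined below, was -0.58. Markers of other cells were also present, with median differences of 1.64 for hepatocyte, 2.25 for B cell, -2.38 for T cell, 0.49 for neutrophil, and -0.21 for erythroid markers. The platelet median was 0.27, but the most abundant platelet marker, Pf4, was at -2.72, and the summed platelet level was 249.2 FPKM in PDR and 1470 FPKM in SKYD. Skeletal muscle markers had a median of 1.28 over the 3 tested and 0.28 over all 6, with Mylpf, the one with the most reads in SKYD, at -0.84. Of smooth muscle, endothelial and fibroblast markers, 1 gene each passed the limit on FPKM given below, Acta2 at -0.39, Pecam1 at 0.45 and Dcn at -1.87. The smooth muscle markers Myh11, Cnn1 and Tagln had 0 reads in both. In pooled RNA, fewer cells of a type and less RNA per cell cannot be told apart.

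Differences are PDR minus SKYD, each as log2(FPKM + 1). FPKM is the number of reads scaled by gene length and by a total for each library, 23487992 for PDR and 24993633 for SKYD. These totals are 1.017 and 0.983 times the reads on genes, so they are adjusted and not plain read totals, and the added 1 understates the difference of genes with low levels. Intervals are exact 95% intervals for the PDR part of the reads of a gene, and they cover counting error only. Genes were tested where FPKM averaged 1 or more over both libraries. For these 10399, the median difference was -0.0035, and 14.3% were more than 2-fold apart. Of the enzymes, Gapdh alone was more than 2-fold apart. Nothing is read from this count, since Gapdh was chosen on this contrast and passed the limit on FPKM only through its PDR level. Hk2 did not reach that limit.

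Gapdh (ENSMUSG00000057666, chr6:125161715-125166467 of GRCm38, minus strand) had 4375 reads in PDR against 77 in SKYD. Its level was 45.1 FPKM in PDR and 0.75 FPKM in SKYD, a log2 difference of 4.72 (95% CI 4.57 to 4.86). Without the added 1, its FPKM was 60.5-fold higher in PDR. These values and the ranks below use only the reads counted on Gapdh itself. With the reads on its sequence copies, described below, the difference in reads was 1.93-fold. By level, Gapdh was at rank 1530 of all genes for PDR and at rank 11230 for SKYD. By difference, it was at rank 13 of the 10399 genes and at rank 1 of the 8795 protein-coding genes among them. Gbp2b, an interferon-inducible GTPase, followed with a log2 difference of 4.599. Over all genes, those next to Gapdh in the order of differences were immunoglobulin genes, Igkv10-94 at 5.03 and Ighd4-1 at 5.31 above it, and Ighv14-4 at 4.69 and Ighg2c at 4.61 below it. Ighd4-1 rests on 10 reads in PDR and 0 in SKYD. With 2 libraries, likeness to Gapdh means only a similar difference.

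**Figure D1:**
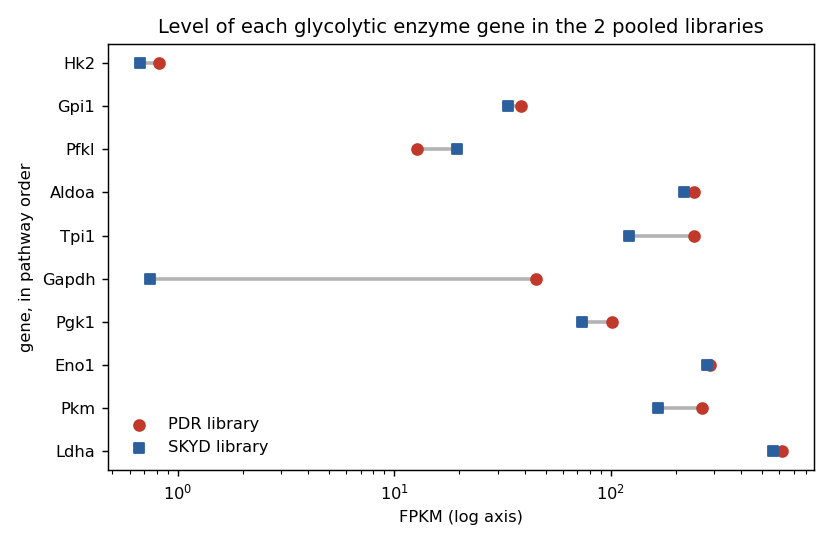
FPKM on a log axis of the 10 enzyme genes in pathway order, with a circle for the PDR library and a square for the SKYD library (1 pooled library each). Gapdh runs from 0.75 to 45.1 FPKM, while the paired points of no other gene are more than 2.003-fold apart.

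Upstream of Gapdh come the genes of the first steps. Hk2, the hexokinase isozyme known to be induced by activation, had 115 reads in PDR and 100 in SKYD, at 0.82 and 0.67 FPKM, and its log2 difference of 0.12 had an interval that includes 0 (95% CI -0.05 to 0.29). Gpi1, the isomerase that makes fructose phosphate, was at 38.5 and 33.6 FPKM, a log2 difference of 0.19 (95% CI 0.14 to 0.25). Pfkl, the liver-type phosphofructokinase, was the 1 enzyme gene with a lower level in PDR. Its FPKM was 12.8 in PDR and 19.4 in SKYD, from 2000 and 3239 reads, a log2 difference of -0.57 (95% CI -0.65 to -0.49).

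Next to GAPDH in the pathway stand aldolase, triosephosphate isomerase and phosphoglycerate kinase. Aldoa, whose enzyme cuts the sugar, had 241.0 FPKM in PDR and 216.9 in SKYD, a log2 difference of 0.15 (95% CI 0.12 to 0.18). Tpi1, whose product supplies the substrate of GAPDH, had 243.0 and 121.3 FPKM, from 15715 and 8347 reads. Its log2 difference of 0.997 (95% CI 0.96 to 1.03) lies at the 2-fold limit, just inside it on this scale and just outside it under 5 of the other settings. Pgk1, which takes the product of GAPDH and gains ATP, had 100.7 and 73.5 FPKM, a log2 difference of 0.45 (95% CI 0.39 to 0.51).

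Of the genes of the last steps, Ldha and Eno1 had the highest levels of the 10 in both libraries. Ldha, which turns pyruvate into lactate, had 619.1 FPKM in PDR and 563.2 in SKYD, from 48130 and 46597 reads. Its log2 difference was 0.14 (95% CI 0.12 to 0.15). Eno1 (enolase) had 286.0 and 279.3 FPKM, and at 0.03 (95% CI 0.01 to 0.05) it had the smallest log2 difference of the 10 genes. Pkm (pyruvate kinase) had 263.2 and 165.3 FPKM, a log2 difference of 0.67 (95% CI 0.64 to 0.69). Among the 9 genes other than Gapdh, 8 were higher in PDR and 1 was lower, and their median log2 difference was 0.15.

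In both libraries the order of levels began with Ldha and Eno1 and ended with Hk2. In PDR, Tpi1 and Aldoa, at 243.0 and 241.0 FPKM, had overlapping counting intervals, and Gapdh was in place 7, between Pgk1 and Gpi1. In SKYD, Gapdh was in place 9, and its interval of 0.59 to 0.93 FPKM overlapped that of Hk2, 0.55 to 0.82. The length behind FPKM matters here, because the table gives Gapdh 4133 bases and its longest coding transcript has 1420. Per length of that transcript, the level of Gapdh was 131.2 in PDR and 2.17 in SKYD, above Pgk1 at 123.8 in PDR and still in place 9 in SKYD. The 9 genes without Gapdh took 0.696% of reads on genes in PDR (exact binomial 95% CI 0.692 to 0.699), and in SKYD they took 0.558% (95% CI 0.555 to 0.561). Gapdh took 2.65% of the reads on the 10 genes in PDR (95% CI 2.57 to 2.73) and 0.0543% in SKYD (95% CI 0.0428 to 0.0678).

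Gapdh was then set against the step of each of the 9 other genes by the ratio of reads counted on the genes themselves. The ratio within a library depends on gene length, but the difference between libraries depends on neither gene length nor library size. Against Ldha, there were 9.09 Gapdh reads per 100 Ldha reads in PDR and 0.165 in SKYD, a 55.0-fold difference (95% CI 43.9 to 69.9). Against Hk2, the difference was 49.2-fold (95% CI 34.2 to 71.1). The smallest was that against Tpi1, 30.2-fold (95% CI 24.1 to 38.4), and the largest that against Pfkl, 92.0-fold (95% CI 72.9 to 117.6). Against Eno1 it was 59.1-fold, against Aldoa 54.4-fold, against Gpi1 52.7-fold, against Pgk1 44.1-fold and against Pkm 38.0-fold. Of the 36 pairs of steps without Gapdh, the widest, Pfkl and Tpi1, differed 3.05-fold. The 9 ratios share the Gapdh reads and are not independent. With the reads of sequence copies added to both genes, as described below, the difference against Pfkl was 2.94-fold (95% CI 2.76 to 3.14), that against Ldha 1.76-fold (95% CI 1.698 to 1.82) and that against Hk2 1.58-fold (95% CI 1.19 to 2.09). Against Tpi1 it was 0.964-fold, with an interval that includes no difference (95% CI 0.924 to 1.006).

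**Figure D2:**
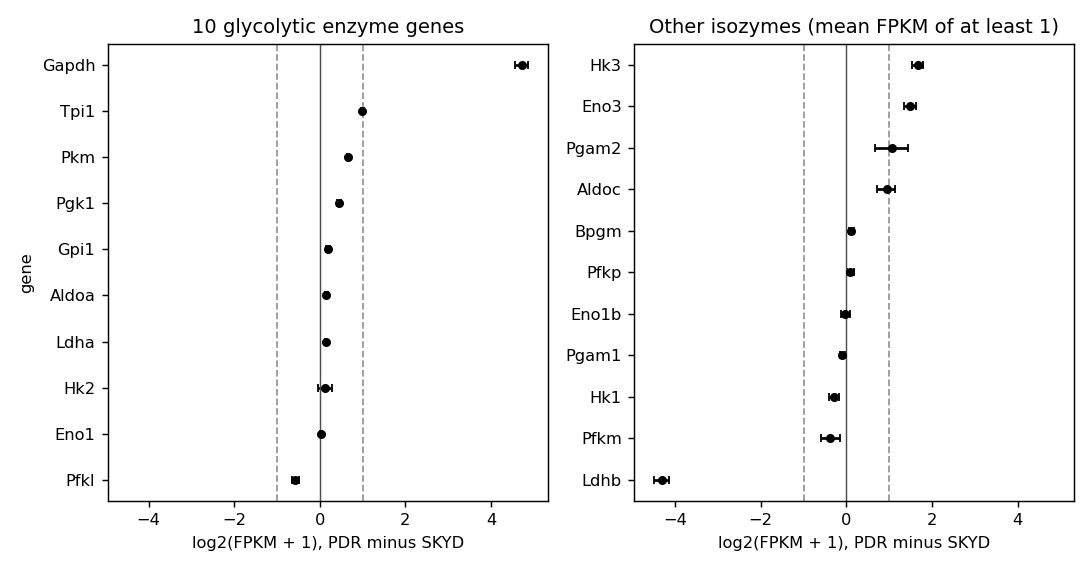
PDR minus SKYD in log2(FPKM + 1) for the 10 enzyme genes and for the 11 tested genes of other isozymes; points are single differences, bars are 95% counting intervals and dashed lines mark 2-fold. Gapdh at 4.72 and Ldhb at -4.32 stand at opposite ends.

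Gapdh has many retrotransposed copies in the mouse genome, and reads from identical sequence cannot be placed by sequence alone. Windows of 100 bases, the read length of the study, were therefore taken from its longest coding transcript and searched in the transcripts of all other annotated genes of GENCODE M21. Of the 1321 windows, 1031 (78.0%) also occur in another gene. Within the coding sequence, all 903 windows do, so that every window found in Gapdh alone includes untranslated bases. Such windows occur in 86 other genes, called copies below, of which 82 are annotated as processed pseudogenes. Among the other 4, Vmn2r60 and Gm47854 are longer genes that span the pseudogenes Gm2308 and Gm7293, so these sequences are counted in more than 1 gene. Both longer genes had 0 reads in both libraries and add nothing to the sums. The coding window found in the most of them, 40 other genes, spans coding bases 742 to 841, counted from the start codon. It is shown because no single read within it can be assigned to Gapdh by its own sequence. The search took single reads, and whether the other read of a pair could place it was not tested.
Gapdh coding window: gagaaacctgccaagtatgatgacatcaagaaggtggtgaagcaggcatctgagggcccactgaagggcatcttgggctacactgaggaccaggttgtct

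The 5 copies with the most reads differ from the Gapdh coding sequence of 1002 bases at 0 to 3 bases. Gm7336 (chr7:51746647-51747878) is identical to it over the whole coding sequence, Gm2606 (chr15:12574889-12575890), Gm5559 (chr5:95861714-95862715) and Gm12070 (chr11:26786633-26787634) differ at 1 base, and Gm13394 (chr2:28933610-28934609) at 3. The coding window with the most differences among them, bases 286 to 385, is shown with capitals at each base where a copy differs from Gapdh. Gm2606 and Gm7336 are identical to Gapdh in it.
Gapdh: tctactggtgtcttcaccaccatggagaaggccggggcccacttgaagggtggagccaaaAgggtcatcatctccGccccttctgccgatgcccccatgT
Gm5559: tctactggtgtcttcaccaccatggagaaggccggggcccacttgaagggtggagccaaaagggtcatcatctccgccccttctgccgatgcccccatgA
Gm12070: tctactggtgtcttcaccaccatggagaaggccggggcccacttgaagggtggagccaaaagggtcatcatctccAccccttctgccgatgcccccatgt
Gm13394: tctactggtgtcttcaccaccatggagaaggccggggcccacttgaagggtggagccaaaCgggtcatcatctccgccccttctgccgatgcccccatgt

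The 86 copies together had 5886 reads in PDR and 5566 in SKYD, and 76 of them had reads. Scaled by the totals behind FPKM, this is a log2 difference of 0.17, against 5.92 for the reads of Gapdh itself. Gm2606 had 2164 reads in PDR and 1874 in SKYD, Gm7336 had 1602 and 1375, and Gm5559 had 853 and 1071. Gm12070, with 243 and 244 reads, and Gm13394, with 144 and 173, had intervals that include no difference. Over the 7 copies with at least 100 reads in all, the log2 differences ran from -0.24 to 0.31. Gm5069, below that number of reads and sharing 2 windows with Gapdh, had 63 reads in PDR and 2 in SKYD, and was named after its values were seen. For SKYD, 98.6% of the reads on Gapdh and its copies were counted on a copy, and for PDR 57.4%.

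With the reads of the copies added, the sum for Gapdh was 10261 in PDR and 5643 in SKYD. The sum was 1.93-fold higher in PDR by the same totals, a log2 difference of 0.95 (95% CI 0.905 to 0.999), where the reads of Gapdh alone give 60.5-fold. The value for the sum lies between those of Pkm, 1.59-fold, and Tpi1, 2.003-fold, on the same scale. The level of Gapdh is thus uncertain in both libraries, because how reads with several equal alignments were counted is not given in the sources used here. The part of such counting in the difference was not tested, since the reads were not analysed here. Copies outside the annotation were not searched.

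Shared sequence was also found for 6 of the other 9 enzyme genes. Of the windows of Pgk1, 67.0% occur in another gene, but the copies listed with values had 70 reads in PDR and 66 in SKYD, against 5308 and 4124 on Pgk1. For Eno1, 59.0% of windows are shared, and its copies, which include the retrogene Eno1b, had 1836 and 2054 reads. Pkm and Gpi1 share 9.82% and 7.40% of windows, and Ldha and Tpi1 share 1.28% and 0.80%. Hk2, Pfkl and Aldoa share none. Adding the copies moved the log2 difference of each of these 9 genes by under 0.01.

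**Figure D3:**
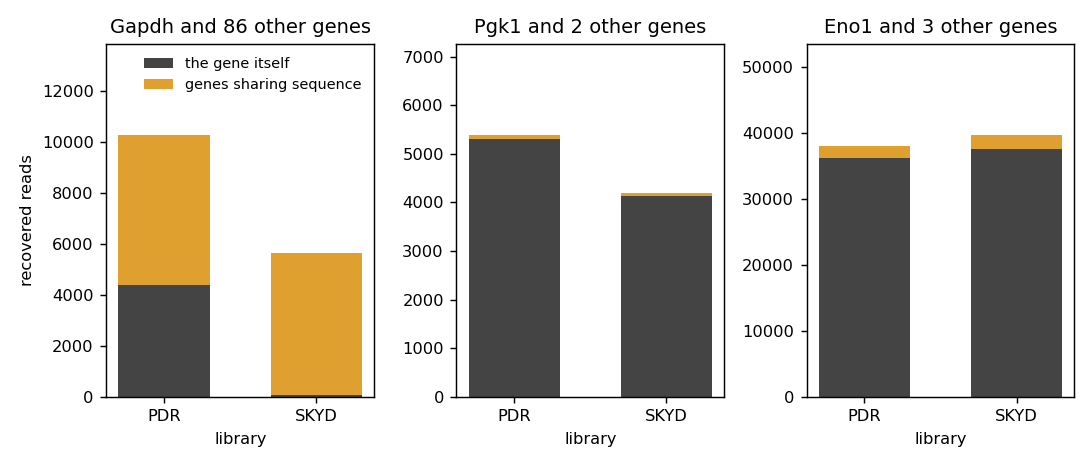
Recovered reads in the PDR and SKYD libraries on Gapdh, Pgk1 and Eno1 (dark) and on the other annotated genes that share a window of 100 bases with each (light). Reads on the 86 Gapdh copies are 5886 in PDR and 5566 in SKYD, while those on Gapdh itself are 4375 and 77.

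Most steps of glycolysis have more than 1 isozyme, and some isozymes differed more than the main forms. Of 20 other isozyme genes, which include those of phosphoglycerate mutase, 11 were tested. More than 2-fold apart were 3 with the higher level in PDR and 1 with the higher level in SKYD. Their median log2 difference was 0.10, and -0.01 over all 20. Over all tested genes, 7.38% were higher in PDR and 6.91% higher in SKYD by this measure.

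Ldhb, the lactate dehydrogenase subunit that prevails in tissues that burn lactate, had 233 reads in PDR and 5677 in SKYD. Its level was 6.32 FPKM in PDR and 144.7 FPKM in SKYD, a log2 difference of -4.32 (95% CI -4.48 to -4.15). Ldhb made up 1.01% of lactate dehydrogenase FPKM in PDR and 20.4% in SKYD, while the sum over Ldha, Ldhb and the testis form Ldhc was 625.4 and 708.1 FPKM. Of the windows of Ldhb, 8.80% are shared with a pseudogene that had 2 and 35 reads. T cell markers had the same direction. All 8 were more than 2-fold higher in SKYD, beside 6.91% of all tested genes, and none was at 0 reads in either library. Their summed level was 183.8 FPKM in PDR and 1271 FPKM in SKYD. Their part in the difference of Ldhb was not tested.

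Gluconeogenesis is the reverse path and is active in liver. Of its 9 genes, 6 were tested, and 4 of these were more than 2-fold higher in PDR, beside 7.38% of all tested genes, with a median log2 difference of 1.40 over the 6 and 0.31 over all 9. G6pc, at 4.18 FPKM in PDR and 0.35 in SKYD, passed the limit on FPKM only through its PDR level. Fbp1, which undoes the phosphofructokinase step, had 1122 and 302 reads and a log2 difference of 1.84, and G6pc, which frees glucose, had 237 and 21 reads and a log2 difference of 1.94. Pck1, another enzyme of the reverse path, was at 1.56, and its mitochondrial form Pck2 at 1.23. Slc37a4, the transporter that feeds G6pc, was at 0.14 (95% CI -0.03 to 0.31), and G6pc3, the form of G6pc found in most tissues, at 0.19 (95% CI -0.01 to 0.40). Of 8 hepatocyte markers, 7 were more than 2-fold higher in PDR, none was at 0 reads, and their summed level was 2123 FPKM in PDR and 735.8 in SKYD. Their part in the differences of these genes was not tested. Pklr, the pyruvate kinase of liver and red cells, had 0 reads in both libraries, which allows up to 3.

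Among hexokinases, the most abundant was Hk3, a form found in myeloid cells, with 18.0 FPKM in PDR and 4.99 in SKYD. It had 1560 and 459 reads, a log2 difference of 1.67 (95% CI 1.54 to 1.80). Hk3 took 81.9% of hexokinase FPKM in PDR and 53.1% in SKYD, and Hk1, the form found in most tissues, took 12.9% and 39.3%. Neutrophil markers, which are also myeloid, had 1 of 8 genes more than 2-fold higher in PDR, beside 7.38% of all tested genes. Their summed level was 4824 FPKM in PDR and 3716 in SKYD. Macrophage markers, myeloid as well, had a median log2 difference of -0.58 and a summed level of 22836 FPKM in PDR and 42857 in SKYD. Most of this sum is Lyz2 (lysozyme), at 22217 and 41336 FPKM. Cd14 was at -2.65, while Csf1r at 0.35 and Fcgr1 at 0.54 went the other way. The part of either list was not tested. Summed over isozymes, hexokinase had 22.03 FPKM in PDR and 9.40 in SKYD, and phosphofructokinase had 21.1 and 27.8.

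The muscle forms of enolase and phosphoglycerate mutase were more than 2-fold higher in PDR, with a log2 difference of 1.48 for Eno3 (1432 and 517 reads) and 1.06 for Pgam2 (104 and 42 reads). Pfkm, the muscle phosphofructokinase, was at -0.37 from 68 and 118 reads. Of 6 skeletal muscle markers, 3 were tested, of which 2 were more than 2-fold higher in PDR, beside 7.38% of all tested genes. Their summed level was 42.6 FPKM in PDR and 34.0 in SKYD, Myh4 was at 4 and 0 reads, and their part was not tested. Aldoc, the brain aldolase, was at 0.94 from 236 and 92 reads. The common forms Pgam1, Pfkp and Eno1b were at -0.09, 0.10 and -0.02, Hk1 was at -0.29, and Bpgm, which makes bisphosphoglycerate in red cells, was at 0.11. Pgk2 and Gapdhs, the testis forms of Pgk1 and Gapdh, had 0 and 0 reads and 10 and 19 reads in PDR and SKYD.

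Transporters that bring in glucose and carry out lactate were within 2-fold in all 6 tested cases of 12, a number too small to set against the 14.3% of all tested genes that were not, with a median log2 difference of 0.07. Bsg (basigin), the chaperone of lactate transporters, had 246.7 FPKM in PDR and 366.2 in SKYD, a log2 difference of -0.57. Slc2a6, a sugar transporter of leukocytes, was at 0.81, and Slc2a1, the main glucose transporter of activated macrophages, at 0.41 (95% CI 0.29 to 0.54).

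Regulators of glycolysis had a median log2 difference of -0.30 over the 13 tested of 19, and 10 of these were lower in PDR. Txnip, which limits glucose uptake, was at -0.69, Pdk3, a brake on pyruvate dehydrogenase, at 0.72 and Egln2, an oxygen sensor, at -0.03. Egln3, another oxygen sensor, was the 1 gene of the list more than 2-fold apart, with 34 reads in PDR and 236 in SKYD, a log2 difference of -1.56 (95% CI -1.76 to -1.33), and was named after its value was seen. At 0.54 FPKM in PDR and 3.55 in SKYD, it passed the limit on FPKM only through its SKYD level, and 6.91% of all tested genes were more than 2-fold apart in this direction. Pdk2, at -0.89, was 2.41-fold higher in SKYD in FPKM without the added 1. Hif1a, the oxygen-regulated factor that switches on glycolytic genes, was at 0.40 (95% CI 0.30 to 0.50). Of 12 other HIF-1 target genes, 9 were tested, and 0 were more than 2-fold apart, beside 14.3% of all tested genes, with a median of -0.02. Of these Higd1a was at 0.12, Bnip3 at 0.47 and Ankrd37 at 0.08. P4ha2, at -0.66, was 2.15-fold higher in SKYD in FPKM without the added 1.

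Gapdh was also set beside other genes used as references, by the same measure. All 16 were tested and 0 were more than 2-fold apart, beside 14.3% of all tested genes, and their log2 differences ran from -0.75 for Actb to 0.47 for Eef1a1, with a median of 0.08. B2m, the most abundant, was at 0.45. Gapdh was at 4.72 from its own reads, and at 0.95 in reads with its copies added. The value with copies is within 2-fold by the totals behind FPKM, but its interval reaches 0.999, just under that limit. Its value after scaling by the sum of reads was not computed. It also lies outside the range of the 16 reference genes. Sequence copies of these 16 were not searched, so the value with copies is not a like measure.

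**Figure D4:**
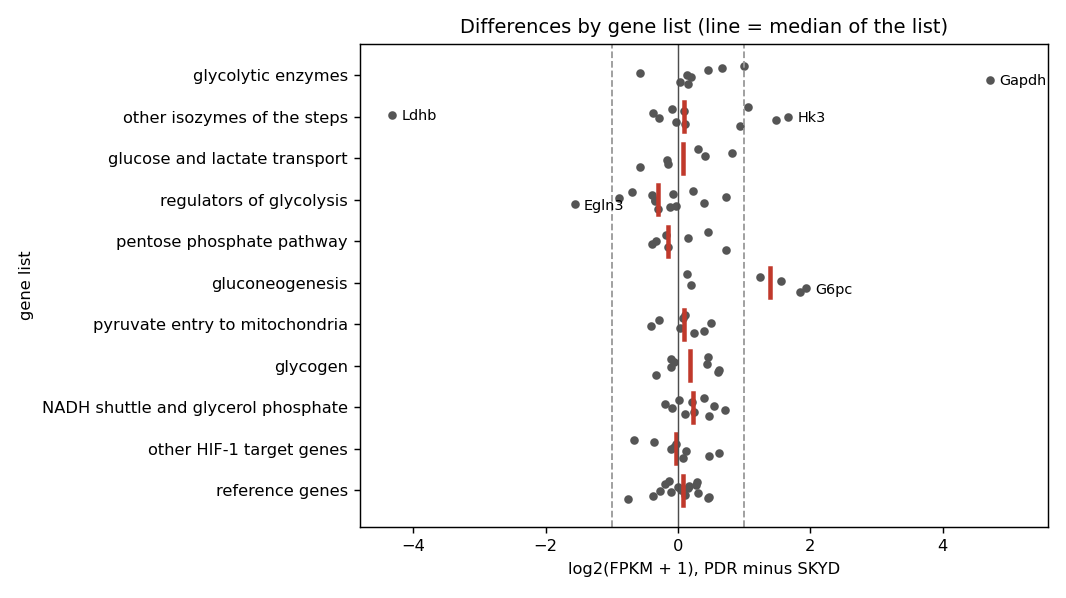
PDR minus SKYD in log2(FPKM + 1) for each tested gene of the 10 enzymes and of 10 further lists; points are genes, red lines are medians of the further lists, and dashed lines mark 2-fold. Gapdh, Ldhb and Hk3 lie outside the 2-fold lines, and all reference genes lie between them.

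Genes beside Gapdh on chromosome 6 were compared in the same way. Of 31 annotated genes within 200 kb, 11 were tested, with a median log2 difference of -0.14. The nearest tested genes were Ncapd2, a condensin subunit, on one side at -0.11 (95% CI -0.27 to 0.04) and Nop2, a ribosomal RNA methylase, on the other at 0.21 (95% CI 0.06 to 0.36). Iffo1, a gene of the opposite strand that overlaps the end of Gapdh, had 122 reads in PDR and 71 in SKYD and did not reach the limit on FPKM. More than 2-fold apart was 1 of the 11, beside 14.3% of all tested genes. It was Cd27, a receptor of lymphocytes, at -1.76, and it was named after its value was seen. Tpi1 lies 347.4 kb from Gapdh on the same chromosome.

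**Figure D5:**
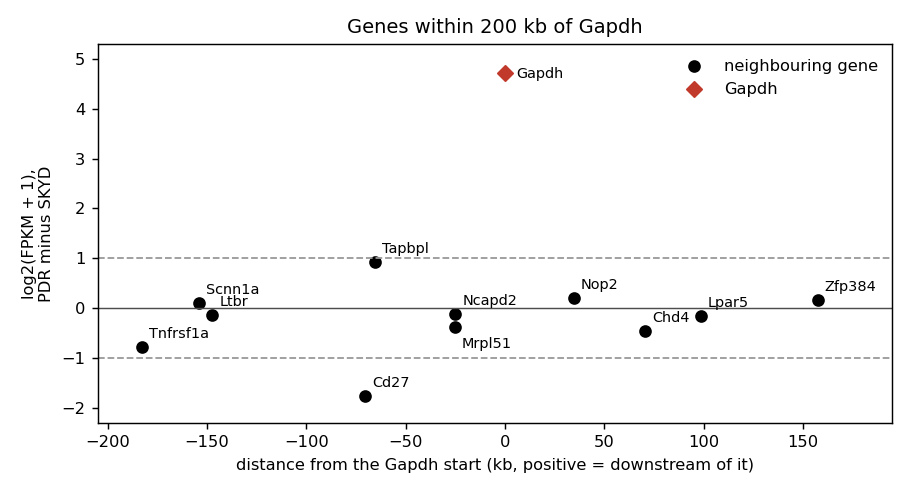
PDR minus SKYD in log2(FPKM + 1) for the 11 tested genes within 200 kb of Gapdh against the distance of their start from that of Gapdh in kb. Gapdh is at 4.72 and its neighbors lie between -1.76 and 0.93.

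Promoters of glycolytic genes are known for binding sites of HIF-1, with the core ACGTG or GCGTG. The 250 bases before each start site in RefSeq (GRCm38.p6) were searched for both on both strands, and the reverse form CACGT overlaps ACGTG in CACGTG. All 10 enzyme genes matched, with 16 start sites. A match was found at 12 of these (75.0%), in 8 of the 10 genes, and over all promoters of this length at 38.6% of 32851 windows, in 41.5% of 27025 genes. Windows of a gene can overlap, and the same matches of Eno1 and of Aldoa were counted at more than 1 start site. A gene with more start sites has more chances of a match, which was not adjusted for. Tpi1 and Gpi1 had 0 matches. Gapdh and 1 start site of Ldha are shown, as the gene with the largest difference and the gene with the most matches (5), with matches in capitals. Their log2 differences were 4.72 for Gapdh and 0.14 for Ldha. A match is a description of the letters and not evidence of binding.
Gapdh, chr6:125165774-125166023, minus strand: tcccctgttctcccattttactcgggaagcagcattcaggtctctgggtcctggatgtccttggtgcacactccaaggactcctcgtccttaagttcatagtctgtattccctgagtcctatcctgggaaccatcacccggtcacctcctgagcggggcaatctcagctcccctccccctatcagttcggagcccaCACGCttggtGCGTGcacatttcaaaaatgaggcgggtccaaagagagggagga
Ldha, chr7:46845554-46845803, plus strand: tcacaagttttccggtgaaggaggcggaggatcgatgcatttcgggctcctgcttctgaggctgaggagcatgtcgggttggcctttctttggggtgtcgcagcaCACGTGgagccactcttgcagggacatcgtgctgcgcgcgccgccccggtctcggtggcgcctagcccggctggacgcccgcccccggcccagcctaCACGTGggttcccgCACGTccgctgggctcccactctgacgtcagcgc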

How the data were processed

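Each group gave 1 library of sorted aortic macrophages from 5 mice. Paired-end reads of 100 bp were aligned by the authors with TopHat2 2.0.9 and Bowtie2 2.0.6 and counted with HTSeq 0.6.1 (versions from the submitters' processing notes). The authors deposited the result as FPKM, beside the length of each of 54532 genes. The labels name mm9, but 98.3% of the 54409 genes shared with GENCODE M21 have its GRCm38 positions, including all 10 members. The study names DESeq and edgeR for its own tests, whose results were not used.

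Reads were recovered as multiples of the smallest product of FPKM and length above 0. All values were within 0.001 of a whole number, with scaling totals of 23487992 (PDR) and 24993633 (SKYD), whose adjustment is not given in the sources used here. Intervals are exact (Clopper-Pearson or conditional odds ratio). No p-value was computed, and genes averaging 1 FPKM or more were tested, that is, counted as more or less than 2-fold apart.

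The members and lists were chosen with earlier results of these data known. Named genes are the members, other tested isozymes, the 3 most abundant of each list, the 2 genes on each side of Gapdh in the order of differences, its nearest tested neighbors and the 5 copies with most reads. Others were named after their values were seen. 1 listed isozyme is not reported here.

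On simulated libraries, reads were recovered for all 54532 genes, 200 of 200 genes changed 4-fold were beyond 2-fold, and intervals held the true value in 95.3% of cases. The changed genes and those for the intervals were tested genes with more than 200 reads in all. Counts were drawn with counting error only, as the intervals assume. The checks of change and interval thus did not cover genes with few reads or variation between mice. Computation was in Python 3.11.15 with scipy 1.17.1, pandas 2.3.3 and numpy 2.4.6, and plots in matplotlib 3.10.9.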

Additional observations from a re-analysis of the deposited data

How the results depend on the processing

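No paired analysis was possible because each group has 1 library, so no replicate could be left out either. The log2 difference of Gapdh was 5.74 with a pseudocount of 0.1, 5.90 with 0.01, 5.10 after rescaling to TPM and 5.38 with the length of the longest coding transcript, and its sign was positive under each of these and under centring and scaling by the sum of reads. The number of members more than 2-fold apart became 2, with Tpi1 added, with either of these pseudocounts, after TPM, after centring on the median and after scaling by the sum of reads. It was 9 when levels were scaled to Gapdh, a shift that is the same for all genes and fixes this count. The 9 are the tested members, with Gapdh itself among them because of the pseudocount. The median of the other 9 members was 0.20 with either pseudocount and after scaling by the sum of reads, and their mean was 0.24. Over the 9 further lists other than the reference genes, 9 of 78 tested genes (11.5%) were more than 2-fold apart, beside 14.3% of all tested genes. Nothing is read from this count. It became 13 with a pseudocount of 0.1 and 11 after rescaling to TPM, settings for which the share over all tested genes was not computed. In FPKM without the added 1, Aldoc, Pdk2, P4ha2 and Gys1 were also more than 2-fold apart. Of these, Gys1 passed the limit on FPKM only through its PDR level. As a difference of log2(FPKM + 1), the smallest value of Gapdh against another step was 3.73, against 4.92 for the log2 ratio of reads. With copies added to both genes it was -0.0529, against Tpi1, the 1 step whose sign changed, and the cause was not tested. With the 86 copies added, the log2 difference of Gapdh in reads was 0.95 in place of 5.92, and the cause of this was not tested either. Adding only the 3 genes named as Gapdh pseudogenes left it at 5.92. The settings with copies, with transcript length and with scaling to Gapdh were chosen after seeing the data. Of the 54 differences of the other 9 members under 6 settings, 49 stayed within their counting interval, 5 moved and 0 changed sign. Depth limits genes with few reads, such as Gapdhs with 10 and 19.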

Other observations

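Pathways that branch from glycolysis were described in the same way, beside the 14.3% of all tested genes that were more than 2-fold apart. In the pentose phosphate pathway, which makes NADPH, 0 of 7 tested genes were more than 2-fold apart and the median log2 difference was -0.15. Taldo1, its most abundant gene, was at -0.18, G6pdx, which controls entry, at 0.73 and Pgls, the next enzyme, at -0.33. Genes that take pyruvate into mitochondria had a median of 0.10 over 8 tested, with Pdhb at -0.28, Mpc1 at 0.03 and Dld at 0.39. Glycogen genes had a median of 0.19 over 8 tested, with Gyg at 0.60, Pygl at -0.10 and Ugp2 at 0.46. Genes of NADH shuttles, which can oxidize the NADH made by GAPDH, had a median of 0.23 over 10 tested, with Mdh1 at 0.55, Mdh2 at -0.19 and Slc25a11 at 0.22. In these 3 lists, 0 tested genes were more than 2-fold apart. The glycogen gene Gys1, at 0.62, was 2.36-fold higher in PDR in FPKM without the added 1. At 1.52 FPKM in PDR and 0.64 in SKYD, it passed the limit on FPKM only through its PDR level.

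Scaling to a single reference gene moves all genes alike by that gene's own difference, so the counts below follow from that difference and are not results about the other genes. Scaled to Gapdh, 99.9% of all 10399 had a level over 2-fold higher in SKYD, and 3 had one over 2-fold higher in PDR. The shift for Gapdh, 5.92 on the log2 scale, rests on the reads counted on Gapdh itself and was 0.95 with its copies added. Scaled to Actb, 30.9% were higher in PDR and 2.78% higher in SKYD, while scaling to B2m gave 4.37% and 16.2%. Scaling to Pgk1, another glycolytic gene that is used as a reference, gave 4.34% and 16.3%. These scalings were chosen after seeing the data.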
